A study of Homo sapiens with 9 samples.

Results

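The genes described here are 10 genes of blood vessel biology, CDH5, UNC5B, PECAM1, TIE1, TEK, KDR, FLT1, NRP1, NRP2 and ENG, out of the 20030 genes listed in the deposited tables. CDH5 and UNC5B were chosen by their values in these same libraries, so their differences between lines are given as a description with no test. The other 8 were listed as vascular genes to look for beside them, as a check for vascular mimicry. MHCC97L is a line of human hepatocellular carcinoma (HCC) cells, and its untreated parental form was compared with a pair of drug resistant lines raised from it under the drug, with increasing concentrations described for saracatinib only. MHCC97L-Src was stably resistant to 4 μmol/L saracatinib, an inhibitor of SRC family kinases, and MHCC97L-Oxa to 2 μmol/L oxaliplatin, a platinum compound. Every line was grown in DMEM with 10% fetal bovine serum, and each kind of resistance is represented by a single line. Poly(A) RNA was sequenced in 3 stranded libraries per line, whose totals ran from 16970486 to 18209213 counts. All 3 pairs of lines were compared by the quasi-likelihood test of edgeR, with Benjamini-Hochberg adjustment over all genes tested, and a gene was called at an adjusted p under 0.05. Both comparisons with MHCC97L share its 3 libraries, so they are not independent. The labels do not say whether the libraries of a line came from separate cultures, and the paper speaks of independent experiments without describing them. The p-values therefore measure only the spread between these libraries, which may be technical.

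Endothelial cells line blood vessels, and vascular endothelial growth factors, angiopoietins, netrins, semaphorins and bone morphogenetic proteins act on them through the receptors and coreceptors in this list. CDH5 and PECAM1 hold neighbouring endothelial cells together. In some aggressive tumors, hepatocellular carcinoma among them, tumor cells have been described that line channels themselves and express endothelial genes such as CDH5, which is called vascular or vasculogenic mimicry.

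The MHCC97L libraries stood apart from each other, which bears on every comparison with that line. On the first principal component of log2 CPM (counts scaled to library size by TMM factors) of 12232 genes, which held 64.1% of the variance, MHCC97L replicates 1, 2 and 3 lay at -138, 11.6 and -48.3. The MHCC97L-Oxa replicates lay at 24.6, 14.2 and 9.96 and the MHCC97L-Src replicates at 37.8, 61 and 27.6. Across genes, which are not independent replicates, Pearson's r of log2 CPM between libraries of a line was 0.859 to 0.956 in MHCC97L, 0.984 to 0.99 in MHCC97L-Oxa and 0.969 to 0.987 in MHCC97L-Src. The deviation of MHCC97L replicate 1 from the mean of the 9 libraries followed the GC content of the genes, with a Spearman's rho of -0.781. GC content and gene length held 66.1% of the variance of its deviation. The next largest share was 47.4%, in MHCC97L-Src replicate 2, with a rho of 0.699. Among the members, GC content ran from 44.7% in NRP1 to 63.3% in ENG, so values without MHCC97L replicate 1 and with offsets for GC content and length are given beside the differences from MHCC97L of the members tested. Those offsets moved the median log2 fold change of all genes tested from -0.16 to -0.05 in MHCC97L-Src against MHCC97L and from -0.19 to -0.08 in MHCC97L-Oxa against MHCC97L.

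The labels give hepatoma cells of the liver, but most markers that define hepatocytes were at or near 0. Of 14 hepatocyte or hepatocellular markers, ALB, APOB, TTR, AFP, FGA and AHSG had 0 counts in every library, and 10 of the 14 stayed under 10 counts in every library. The list summed to 3065, 5786 and 5981 CPM in MHCC97L, to 3106, 2900 and 3178 in MHCC97L-Oxa and to 5460, 7057 and 4522 in MHCC97L-Src. Between 51.9% and 64.8% of its counts came from KRT8, a keratin of simple epithelia, and most of the rest from its partner KRT18. In MHCC97L-Src against MHCC97L, edgeR called 0 of the 2 markers tested, with 0 at an unadjusted p under 0.05 and 0 called by DESeq2. In MHCC97L-Oxa against MHCC97L it called SERPINA1 alone of 3, with 2 unadjusted and 1 by DESeq2. KRT8 lay below MHCC97L without overlap in MHCC97L-Oxa (-0.94, edgeR adjusted p 0.183, not called) and overlapped with it in MHCC97L-Src (-0.07, edgeR adjusted p 0.909). KRT8 and KRT18 were higher in MHCC97L-Src than in MHCC97L-Oxa, with log2 differences of 0.87 (SE 0.16, edgeR adjusted p 0.0136) and 0.91 (SE 0.14, edgeR adjusted p 0.00471). KRT8 lost that call without MHCC97L-Oxa replicate 1, 2 or 3 or MHCC97L-Src replicate 1, with adjusted p-values from 0.0535 to 0.106. SERPINA1, a secreted protease inhibitor, had 1 count in each MHCC97L library, 31, 14 and 14 in MHCC97L-Oxa and 22, 9 and 10 in MHCC97L-Src. The ratio of the summed counts, 59 in MHCC97L-Oxa to 3 in MHCC97L, was 19.7 with a 95% counting interval of 6.42 to 98.2 (edgeR adjusted p 0.0323). SERPINA1 passed the count filter there only through MHCC97L-Oxa, so nothing is read from this call, and it was not tested in MHCC97L-Src against MHCC97L. The call was lost without MHCC97L replicate 3 (adjusted p 0.159) and without MHCC97L-Oxa replicate 1, 2 or 3 (0.207, 0.165 and 0.152).

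Of the 10 genes, 6 had at least 10 counts in some library and were tested in all 3 comparisons. The other 4, TIE1, TEK, KDR and FLT1, were below 10 counts in every library. KDR and FLT1 had 0 counts in all 9, which at a floor of 3 counts allows 0.155 to 0.196 CPM. The floor and the counting intervals given here hold counting error alone, as amplified reads that carry no molecular identifiers can repeat the same molecule. Levels of different genes were compared on FPKM, a level scaled to transcript length. In MHCC97L, ENG led at 21.6 ± 3.65 FPKM (mean ± SD of 3 libraries), followed by NRP1 at 3.06 ± 1.52, UNC5B at 2.20 ± 0.445, NRP2 at 1.15 ± 0.22, CDH5 at 0.19 ± 0.042 and PECAM1 at 0.0861 ± 0.0424. Only NRP1 and UNC5B overlapped among these neighbours. In MHCC97L-Oxa the order was ENG at 22.4 ± 0.893, UNC5B at 7.70 ± 0.797, NRP1 at 2.46 ± 0.17, NRP2 at 1.12 ± 0.139, PECAM1 at 0.0892 ± 0.0171 and CDH5 at 0.0581 ± 0.00552, with no overlap between neighbours. In MHCC97L-Src it was ENG at 28.3 ± 1.65, UNC5B at 19.7 ± 0.0511, NRP1 at 2.17 ± 0.268, CDH5 at 1.71 ± 0.158, NRP2 at 0.758 ± 0.214 and PECAM1 at 0.109 ± 0.0563, where NRP1 and CDH5 overlapped. CDH5 was thus below NRP2 in MHCC97L and MHCC97L-Oxa and above it in MHCC97L-Src.

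**Figure D1:**
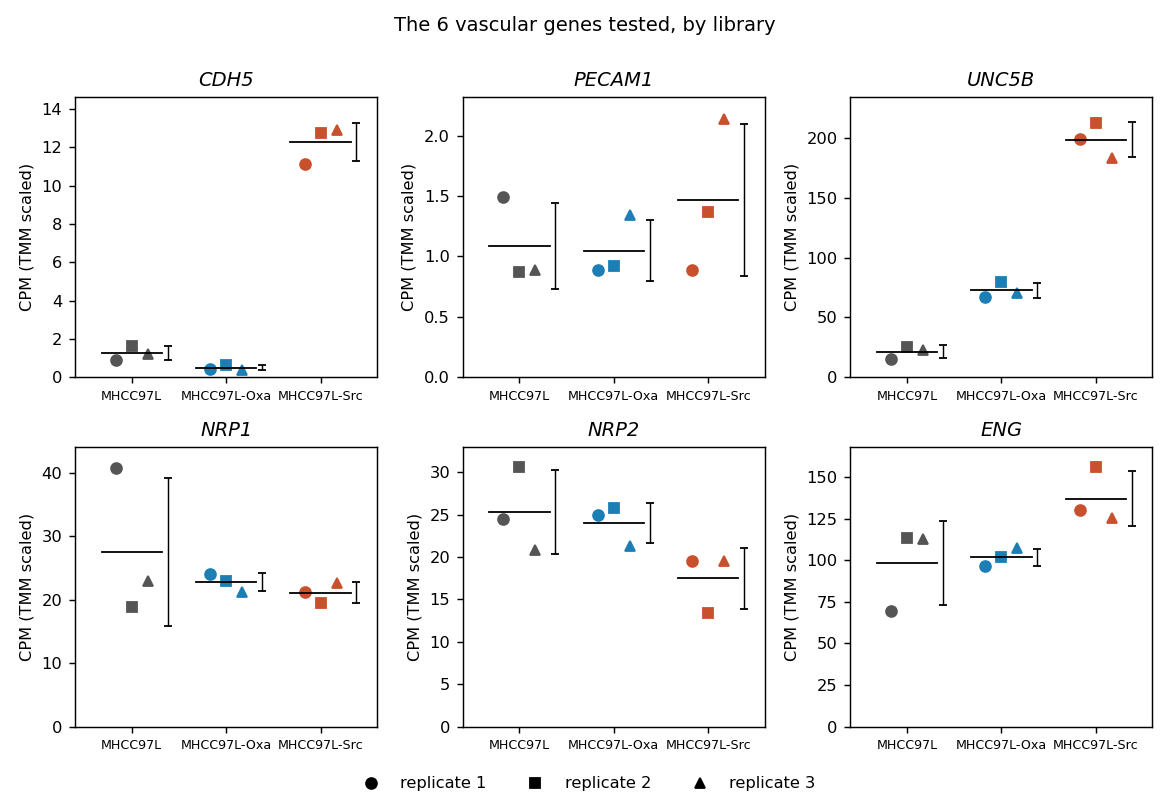
Level of each of the 6 vascular genes tested, in CPM on a linear axis from 0, by line. Points are libraries, marked by replicate number, horizontal lines are means and bars are SD over 3 libraries; CDH5 lay between 11.1 and 12.9 CPM in MHCC97L-Src and under 2 CPM elsewhere, while PECAM1 and NRP1 overlapped between the lines.

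In MHCC97L-Src against MHCC97L, edgeR called 0 of the 4 members tested other than CDH5 and UNC5B, with 0 at an unadjusted p under 0.05 and 0 called by DESeq2, beside 2.13% of 12037 genes called by edgeR, 1.43% higher and 0.698% lower. In MHCC97L-Oxa against MHCC97L it likewise called 0 of these 4, with 0 unadjusted and 0 by DESeq2, beside 0.953% of 12064 genes, 0.771% higher and 0.182% lower. In MHCC97L-Src against MHCC97L-Oxa it called 0 of 4, with 2 unadjusted (NRP2 and ENG) and 0 by DESeq2, beside 4.64% of 11994 genes, 2.12% higher and 2.52% lower. With shares this small among all genes, 0 of 4 does not set the members apart. These shares stand beside the calls of every list in this text. Among all genes, 3546 of 12037 had an unadjusted edgeR p under 0.05 in MHCC97L-Src against MHCC97L, and DESeq2 called 2114. In MHCC97L-Oxa against MHCC97L they were 2708 and 893 of 12064, and between the resistant lines 2340 and 839 of 11994. Unadjusted and DESeq2 counts of members and lists stand beside these, and nothing particular to a list is read from them. The CPM of every MHCC97L-Src library was above that of every MHCC97L library for 3 of the 6 members tested, CDH5, UNC5B and ENG, beside 17.5% of all genes, and below it for 1, NRP2, beside 12.2%. MHCC97L-Oxa lay wholly above MHCC97L for UNC5B, beside 18.2% of all genes, and wholly below it for CDH5, beside 9.93%. MHCC97L-Src lay wholly above MHCC97L-Oxa for CDH5, UNC5B and ENG, beside 13.9%, and wholly below it for NRP2, beside 12.7%. Nothing is read from CDH5 and UNC5B here, and what remains, ENG or NRP2 out of 4, is near the share of all genes and no result about the members. The split by direction in MHCC97L-Oxa against MHCC97L, 93 higher and 22 lower, became 782 and 776 with the GC and length offsets, 352 and 247 with offsets and replicate block and 637 and 2068 without MHCC97L replicate 2. In MHCC97L-Src against MHCC97L, 172 higher and 84 lower became 661 and 616 with the offsets, 124 and 96 with offsets and block and 690 and 2729 without MHCC97L replicate 2. The number of genes called rested on single libraries. Called for MHCC97L-Src against MHCC97L were 256 genes, but 672, 3419 or 22 without MHCC97L replicate 1, 2 or 3 and 69, 47 or 27 without MHCC97L-Src replicate 1, 2 or 3. For MHCC97L-Oxa against MHCC97L the 115 genes became 2251, 2705 or 2 without MHCC97L replicate 1, 2 or 3, and 2 without MHCC97L-Oxa replicate 1, without replicate 2 or without replicate 3. For MHCC97L-Src against MHCC97L-Oxa the 556 genes became 243, 167 or 231 without MHCC97L-Oxa replicate 1, 2 or 3 and 208, 1033 or 1617 without MHCC97L-Src replicate 1, 2 or 3.

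CDH5 encodes VE-cadherin, the cadherin of endothelial adherens junctions (NCBI gene number 1003, chromosome 16 of GRCh38 from 66366622 to 66404786, + strand). It gave 17, 28 and 22 counts in MHCC97L replicates 1, 2 and 3, 8, 12 and 7 in MHCC97L-Oxa, and 188, 196 and 236 in MHCC97L-Src. Every MHCC97L-Src library was far above the rest, every MHCC97L-Oxa library was below every MHCC97L library, and no lines overlapped. Mean levels were 1.24 ± 0.379 CPM in MHCC97L, 0.494 ± 0.137 in MHCC97L-Oxa and 12.3 ± 1.01 in MHCC97L-Src. The fitted level in MHCC97L-Src was 9.84-fold that in MHCC97L (log2 difference 3.30, SE 0.46) and 24.4-fold that in MHCC97L-Oxa (4.61, SE 0.28). In MHCC97L-Oxa against MHCC97L the log2 difference was -1.31 (SE 0.45). The same differences were 3.12, 4.54 and -1.41 with the GC and length offsets, and 3.14 and -1.42 against MHCC97L without its replicate 1. The pseudocount moved them most, since CDH5 was under 1 FPKM outside MHCC97L-Src. By limma on log2(FPKM + 1) they were 1.18, 1.35 and -0.17, and on log2(FPKM + 0.1) they were 2.64, 3.51 and -0.87. In RNA from whole cultures, more cells with CDH5 RNA and more CDH5 RNA per cell cannot be told apart.

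PECAM1, the other adhesion molecule (NCBI gene number 5175, chromosome 17, 64319415 to 64413776, - strand), showed 29, 15 and 16 counts in MHCC97L, 16, 17 and 24 in MHCC97L-Oxa and 15, 21 and 39 in MHCC97L-Src. Its libraries overlapped between all lines, and the MHCC97L-Src libraries were the most spread. The log2 difference from MHCC97L was 0.43 (SE 0.50, edgeR adjusted p 0.578) in MHCC97L-Src, 0.67 with the GC and length offsets and 0.78 without MHCC97L replicate 1. In MHCC97L-Oxa it was -0.05 (SE 0.43, edgeR adjusted p 0.944), which turned to 0.15 with the GC and length offsets and to 0.34 without MHCC97L replicate 1. MHCC97L-Src differed from MHCC97L-Oxa by 0.49 (SE 0.42, edgeR adjusted p 0.558).

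Of 11 genes of the cadherin junction, 10 were tested against MHCC97L, and edgeR called JUP alone in MHCC97L-Src (median log2 fold change of the list -1.15, all genes -0.16), with 6 at an unadjusted p under 0.05 and 3 called by DESeq2. It called 0 of 10 in MHCC97L-Oxa (median -0.66, all genes -0.19), with 4 at an unadjusted p under 0.05 and 2 called by DESeq2. JUP encodes plakoglobin, a catenin that binds cadherin tails. Its counts were 5596, 8495 and 8904 in MHCC97L, 13434, 14434 and 13358 in MHCC97L-Oxa, and 23191, 24598 and 22943 in MHCC97L-Src. The lines did not overlap, with MHCC97L lowest and MHCC97L-Src highest. JUP rose 3.31-fold in MHCC97L-Src (log2 1.73, SE 0.28, edgeR adjusted p 0.0225), a call lost without MHCC97L replicate 3 (adjusted p 0.0882) and without MHCC97L-Src replicate 1, 2 or 3 (0.0813, 0.1 and 0.0854). In MHCC97L-Oxa the difference was not called (0.83, edgeR adjusted p 0.167), but JUP was higher in MHCC97L-Src than in MHCC97L-Oxa (0.89, edgeR adjusted p 0.0018). By mean FPKM it was the most abundant of the list, at 68.6 ± 13.7 in MHCC97L and 212.5 ± 8.77 in MHCC97L-Src. F11R, which encodes junctional adhesion molecule A, had 29.5 ± 5.33 FPKM in MHCC97L, 54.4 ± 2.2 in MHCC97L-Oxa and 51.9 ± 3.73 in MHCC97L-Src, with log2 differences of 0.91 (edgeR adjusted p 0.105) and 0.89 (0.0903) from MHCC97L. CTNNA1, alpha-catenin, was above F11R in mean FPKM in MHCC97L, at 45.9 ± 31.5, and below it in either resistant line, with 11549, 3928 and 3702 counts in MHCC97L, 4746, 4386 and 3597 in MHCC97L-Oxa and 3417, 2535 and 4540 in MHCC97L-Src. Its high value in MHCC97L came from replicate 1. The cadherins CDH1, CDH2 and CDH13 were named after their values were seen. CDH1, at most 19 counts in any library, lay lower than in MHCC97L without overlap in MHCC97L-Src (-2.13, edgeR adjusted p 0.0769) and in MHCC97L-Oxa (-2.51, edgeR adjusted p 0.058), not called in either. It passed the count filter only in the comparisons with MHCC97L, the line where it was higher, so nothing is read from these differences. CDH2 and CDH13 lay lower than in MHCC97L without overlap in MHCC97L-Src alone (-1.42, edgeR adjusted p 0.139, and -1.99, 0.104), not called. In MHCC97L-Oxa both overlapped with MHCC97L (-0.82, edgeR adjusted p 0.34, and -0.35, 0.688). For CDH2 and CDH13, MHCC97L replicate 1 was far above the other libraries of its line, at 55.5 against 16.4 and 14.9 CPM and at 14 against 3.96 and 5.01. Of the 9 tested between the resistant lines, edgeR called 2, beside 4.64% of all genes tested. JUP was higher and CDH13 lower in MHCC97L-Src (CDH13 -1.65, edgeR adjusted p 0.00725, and 0.0627 without MHCC97L-Oxa replicate 2). The junction list summed to 1619, 1169 and 1068 CPM in MHCC97L, 1505, 1490 and 1384 in MHCC97L-Oxa and 2021, 2150 and 2009 in MHCC97L-Src.

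UNC5B encodes a netrin receptor of endothelial tip cells that also acts as a dependence receptor (NCBI gene number 219699, chromosome 10 of GRCh38, 71212570 to 71302864, + strand). It gave 290, 439 and 410 counts in MHCC97L, 1210, 1475 and 1269 in MHCC97L-Oxa, and 3372, 3270 and 3354 in MHCC97L-Src. The lines did not overlap, and unlike CDH5 it was higher than in MHCC97L in either resistant line. Mean levels were 21.1 ± 5.53, 72.6 ± 6.59 and 198.9 ± 14.6 CPM. Fitted levels were 9.42-fold those of MHCC97L in MHCC97L-Src (log2 difference 3.24, SE 0.28) and 3.44-fold in MHCC97L-Oxa (1.78, SE 0.27). MHCC97L-Src had 2.73-fold the level of MHCC97L-Oxa (1.45, SE 0.12). With the GC and length offsets the log2 differences were 2.99, 1.66 and 1.34, and without MHCC97L replicate 1 those from MHCC97L were 3.08 and 1.68.

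Of the other netrin receptors only NEO1 reached 10 counts in a library. UNC5C and UNC5D had 0 counts in every library, UNC5A had at most 3, and DCC had 2 counts in MHCC97L-Oxa replicate 3 and 0 elsewhere. NEO1, neogenin, showed 280, 164 and 147 counts in MHCC97L, 296, 388 and 243 in MHCC97L-Oxa and 260, 203 and 335 in MHCC97L-Src, with overlap between the lines. Among ligands, NTN1 and NTN3 were named after their values were seen. NTN1 gave 7, 18 and 15 counts in MHCC97L, 22, 26 and 17 in MHCC97L-Oxa and 27, 33 and 16 in MHCC97L-Src. NTN3, not tested, gave 0, 3 and 7 in MHCC97L, 3, 3 and 2 in MHCC97L-Oxa and 6, 24 and 15 in MHCC97L-Src. NTN4, a netrin of basement membranes, showed 1062, 150 and 228 counts in MHCC97L, 228, 223 and 205 in MHCC97L-Oxa and 109, 60 and 118 in MHCC97L-Src. MHCC97L replicate 1 held most of its counts in that line, and the MHCC97L-Src libraries were the lowest. RGMA, a ligand of neogenin, gave 3, 10 and 19 counts in MHCC97L, 34, 38 and 31 in MHCC97L-Oxa and 70, 70 and 87 in MHCC97L-Src, with no overlap. The 17 genes of the netrin and UNC5 family, UNC5B itself not counted, summed to 86.6, 28.5 and 31.6 CPM in MHCC97L, 42.2, 47.5 and 36.2 in MHCC97L-Oxa and 36.6, 32 and 41.6 in MHCC97L-Src. Of the 7 tested, edgeR called 0 in MHCC97L-Src against MHCC97L (median 0.55), with 3 at an unadjusted p under 0.05 and 2 called by DESeq2. It called 0 in MHCC97L-Oxa against MHCC97L (median 0.66), with 2 unadjusted and 0 by DESeq2. In MHCC97L-Src against MHCC97L-Oxa (median -0.14) it called RGMA higher (1.24, edgeR adjusted p 0.0216) and NTN4 lower (-1.10, edgeR adjusted p 0.027), beside 4.64% of all genes tested. Without MHCC97L-Oxa replicate 1, 2 or 3 or MHCC97L-Src replicate 1, both calls were lost, with adjusted p-values of 0.0739 to 0.107 for RGMA and 0.0703 to 0.135 for NTN4.

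KDR and FLT1 encode the receptor tyrosine kinases of vascular endothelial growth factors, VEGFR2 and VEGFR1, and TEK and TIE1 encode the angiopoietin receptor TIE2 and its partner. TEK had 1 count in MHCC97L replicate 2 and 2 in MHCC97L-Oxa replicate 1, and TIE1 had 1 in MHCC97L replicate 1 and 2 in MHCC97L-Oxa replicate 2. Both had 0 in every MHCC97L-Src library. Any difference between the lines in these 4 kinases was below what this depth can show, and no fold is given. KDR lies on chromosome 4 from 55078259 to 55125595 and FLT1 on chromosome 13 from 28300344 to 28495145, each on the - strand. RefSeq start sequences were at hand for 6 members, TIE1, TEK, KDR, FLT1, NRP2 and ENG, and not for CDH5, UNC5B, PECAM1 and NRP1. The 250 bases before the RefSeq start of the VEGF receptor genes are shown because these are the members with 0 counts in all 9 libraries. They are from the RefSeq annotation of GRCh38.p14, on the - strand, at chr4:55125596-55125845 for KDR and chr13:28495129-28495378 for FLT1, written 5′ to 3′ with GGAA or TTCC, the core letters of ETS factor motifs on either strand, in capitals.
KDR: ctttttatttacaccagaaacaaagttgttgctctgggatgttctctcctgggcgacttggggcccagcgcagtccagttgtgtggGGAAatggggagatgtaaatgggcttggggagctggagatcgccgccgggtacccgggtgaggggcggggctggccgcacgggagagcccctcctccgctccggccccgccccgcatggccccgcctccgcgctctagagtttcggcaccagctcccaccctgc
FLT1: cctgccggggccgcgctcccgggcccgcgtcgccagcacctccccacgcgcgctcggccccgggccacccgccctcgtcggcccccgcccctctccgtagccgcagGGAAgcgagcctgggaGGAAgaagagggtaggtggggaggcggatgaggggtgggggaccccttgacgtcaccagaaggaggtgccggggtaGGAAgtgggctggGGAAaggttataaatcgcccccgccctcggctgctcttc
The annotations differ for FLT1, where GENCODE places the gene up to 28495145, so the bases of the window from 28495129 to 28495145 lie inside the gene as given by GENCODE. KDR held 1 such match and FLT1 held 4, and 92.7% of 35116 windows of 250 bases before gene starts held at least 1. Neither window held CCGGAA or its reverse complement TTCCGG, a longer form that contains GGAA, found in 14.5% of windows, or ACGTG or CACGT, the core letters of the hypoxia response element, found in 18.5%. GC content was 65.2% in the KDR window and 73.2% in the FLT1 window.

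Of the ligands of KDR and FLT1, VEGFA, VEGFB, VEGFC and PGF were detected. VEGFA, the main ligand of VEGFR2, showed 2684, 3108 and 2806 counts in MHCC97L, 6409, 7209 and 6317 in MHCC97L-Oxa and 4379, 3670 and 4592 in MHCC97L-Src. MHCC97L was lowest and MHCC97L-Oxa highest, with no overlap. VEGFA rose 2.31-fold in MHCC97L-Oxa (log2 1.21, SE 0.19, edgeR adjusted p 0.0325), and in MHCC97L-Src the difference of 0.66 was not called (edgeR adjusted p 0.112). It was lower in MHCC97L-Src than in MHCC97L-Oxa (-0.55, edgeR adjusted p 0.0129). The first call was lost without MHCC97L replicate 3 (adjusted p 0.156) and without MHCC97L-Oxa replicate 1, 2 or 3 (0.243, 0.279 and 0.245), and with replicate number as a block (0.0684). The difference between the resistant lines lost its call without MHCC97L-Oxa replicate 1, 2 or 3 or MHCC97L-Src replicate 1 (0.0609 to 0.122). PGF, placental growth factor, which binds VEGFR1, gave 22, 29 and 19 counts in MHCC97L, 86, 106 and 96 in MHCC97L-Oxa and 168, 191 and 156 in MHCC97L-Src. Here MHCC97L-Src was highest, again with no overlap between lines. PGF rose 7.94-fold in MHCC97L-Src (log2 2.99, SE 0.46, edgeR adjusted p 0.0185), and the difference of 2.03 in MHCC97L-Oxa was not called (edgeR adjusted p 0.0646). The call in MHCC97L-Src was lost without MHCC97L replicate 3 (adjusted p 0.103) and without MHCC97L-Src replicate 1, 2 or 3 (0.0685, 0.0823 and 0.0774). PGF was higher in MHCC97L-Src than in MHCC97L-Oxa (0.96, edgeR adjusted p 0.0357), and not called without MHCC97L-Oxa replicate 1, 2 or 3 or MHCC97L-Src replicate 1 (0.132 to 0.15). On FPKM, VEGFA and VEGFB led the ligands in MHCC97L, at 32.9 ± 2.76 and 33.9 ± 7.53, ahead of VEGFC at 6.82 ± 1.57 and PGF at 0.566 ± 0.163. In MHCC97L-Oxa VEGFA stood at 77.1 ± 5.61 FPKM and VEGFB at 43.5 ± 1.31. VEGFD had at most 4 counts in any library. The 5 ligands summed to 218.6, 290.8 and 272.3 CPM in MHCC97L, 496.7, 526.4 and 490 in MHCC97L-Oxa and 393.2, 401.6 and 369.9 in MHCC97L-Src. The medians over the 4 tested were 0.53 in MHCC97L-Src and 0.93 in MHCC97L-Oxa against MHCC97L, and -0.23 between the resistant lines.

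**Figure D2:**
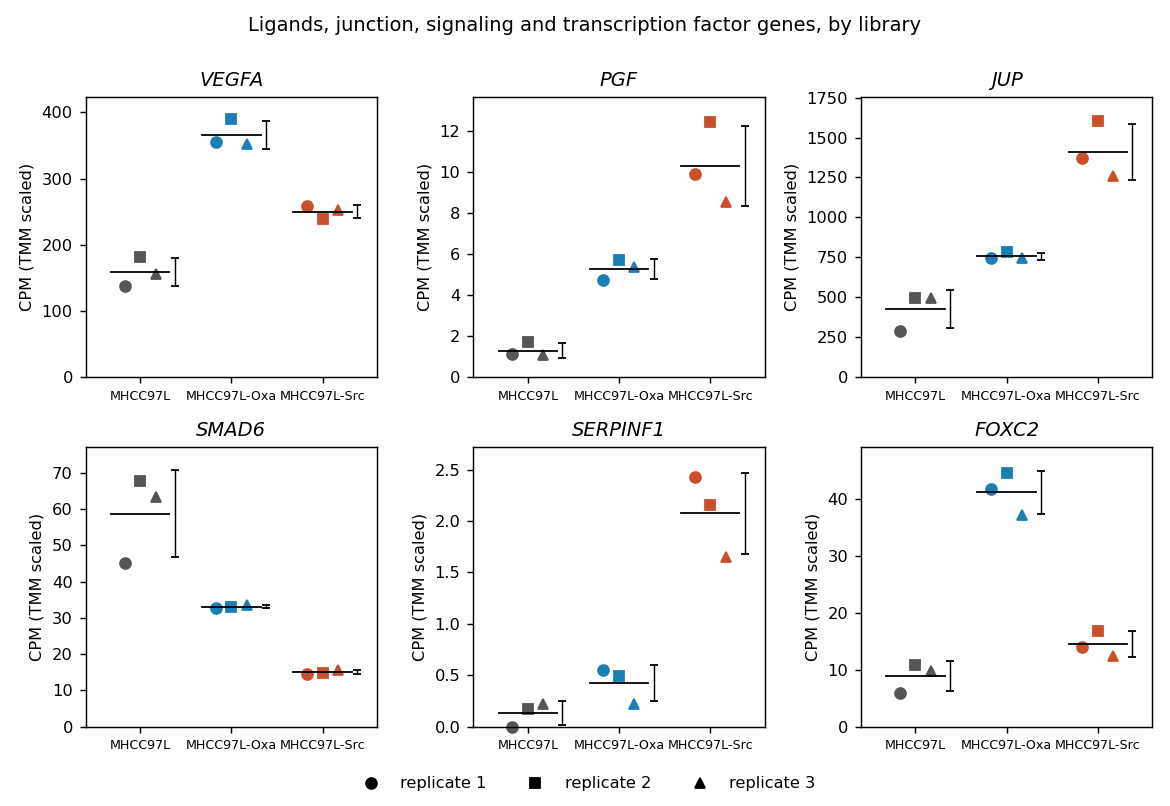
Level in CPM, on linear axes from 0, of the 6 genes of the pathway lists that edgeR called against MHCC97L. Points are libraries, horizontal lines are means and bars are SD over 3 libraries; VEGFA and FOXC2 were highest in MHCC97L-Oxa, at means of 365.9 and 41.2 CPM, PGF, JUP and SERPINF1 were highest in MHCC97L-Src, at 10.3, 1411 and 2.07 CPM, and SMAD6 was lowest there, at 15 CPM.

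Of the angiopoietins, which TEK binds, ANGPT2 and ANGPT4 had 0 counts in every library. ANGPT1 showed 75, 9 and 62 counts in MHCC97L, 19, 34 and 26 in MHCC97L-Oxa and 9, 8 and 6 in MHCC97L-Src. The MHCC97L libraries were spread widely enough to overlap with either resistant line. TNIP2, which binds TEK inside the cell, led the list of 8 angiopoietin and TIE partner genes at 17 ± 3.12 FPKM in MHCC97L, 16.3 ± 2.27 in MHCC97L-Oxa and 15.6 ± 2.23 in MHCC97L-Src, followed by the matrix protein SVEP1 at 3.56 ± 2.72, 4.29 ± 0.621 and 5.52 ± 0.685. TNIP2 overlapped between all lines. SVEP1 overlapped between MHCC97L and either resistant line, and in CPM its MHCC97L-Src libraries (81.28 to 115.5) lay just above those of MHCC97L-Oxa (66.08 to 81.25), with a log2 difference of 0.46 that was not called (SE 0.15, edgeR adjusted p 0.12). The angiopoietin list as a whole had 77.9 to 142.6 CPM in MHCC97L, 103.1 to 121.1 in MHCC97L-Oxa and 114.6 to 164.6 in MHCC97L-Src. Of 3 tested in MHCC97L-Src against MHCC97L, edgeR called 0 (median 0.17), with 0 at an unadjusted p under 0.05 and 0 by DESeq2. It called 0 of 4 in MHCC97L-Oxa against MHCC97L (median -0.08), with 0 unadjusted and 0 by DESeq2, and 0 of 4 between the resistant lines (median 0.25), with 2 unadjusted and 0 by DESeq2.

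NRP1 and NRP2 encode neuropilins, coreceptors that present vascular endothelial growth factors to receptor kinases and class 3 semaphorins to plexins. NRP1 (NCBI gene number 8829, chromosome 10, 33177492 to 33336262, - strand) gave 791, 324 and 412 counts in MHCC97L, 435, 424 and 381 in MHCC97L-Oxa and 359, 298 and 413 in MHCC97L-Src. MHCC97L replicate 1 was the highest, and the other 8 libraries lay close together and overlapped. Mean levels were 27.5 ± 11.6, 22.8 ± 1.43 and 21.1 ± 1.61 CPM. The log2 difference of MHCC97L-Src from MHCC97L was -0.38 (SE 0.37, edgeR adjusted p 0.497), and it turned to 0.37 with the GC and length offsets and to 0.06 without MHCC97L replicate 1. That of MHCC97L-Oxa was -0.27 (SE 0.35, edgeR adjusted p 0.629), and it turned to 0.31 with the offsets and to 0.22 without MHCC97L replicate 1. The difference of MHCC97L-Src from MHCC97L-Oxa was -0.11 (SE 0.15, edgeR adjusted p 0.739), and 0.06 with the offsets. No direction is therefore given for NRP1.

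NRP2 (NCBI gene number 8828, chromosome 2, 205681990 to 205798133, + strand) showed 475, 525 and 374 counts in MHCC97L, 451, 477 and 383 in MHCC97L-Oxa and 330, 205 and 357 in MHCC97L-Src. In counts and CPM, MHCC97L-Src lay below both other lines, which overlapped each other. In FPKM it overlapped with MHCC97L, at 0.934 in MHCC97L-Src replicate 3 and 0.92 in MHCC97L replicate 3. Mean levels were 25.3 ± 4.94, 24.1 ± 2.36 and 17.5 ± 3.57 CPM. The log2 difference of MHCC97L-Src was -0.53 from MHCC97L (SE 0.34, edgeR adjusted p 0.311) and -0.46 from MHCC97L-Oxa (SE 0.19, edgeR adjusted p 0.219), neither called. The difference from MHCC97L was -0.42 with the GC and length offsets and -0.52 without MHCC97L replicate 1. That of MHCC97L-Oxa from MHCC97L was -0.07 (SE 0.28, edgeR adjusted p 0.887), turning to 0.02 with the offsets, and was -0.00 without MHCC97L replicate 1.

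Of 12 semaphorins and plexins, SEMA3E and PLXNA4 had 0 counts in every library. The most abundant was PLXND1, an endothelial plexin, at 34.6 ± 6.78 FPKM in MHCC97L, 65.6 ± 1.21 in MHCC97L-Oxa and 49.1 ± 3.37 in MHCC97L-Src. The lines did not overlap, but its differences from MHCC97L, 0.92 (edgeR adjusted p 0.13) and 0.58 (0.178), were not called. SEMA3B and SEMA3F, secreted ligands of neuropilins, came next. SEMA3B gave 1838, 2551 and 2724 counts in MHCC97L, 3058, 3215 and 3244 in MHCC97L-Oxa and 1866, 2166 and 1956 in MHCC97L-Src. It was lower in MHCC97L-Src than in MHCC97L-Oxa (-0.55, edgeR adjusted p 0.0379), a call lost without MHCC97L-Oxa replicate 1, 2 or 3 or MHCC97L-Src replicate 1 (0.113 to 0.245). SEMA3F had 22.1 ± 5 FPKM in MHCC97L, 22.5 ± 2.16 in MHCC97L-Oxa and 27.9 ± 1.37 in MHCC97L-Src. Of 8 tested in MHCC97L-Src against MHCC97L, edgeR called 0 (median 0.37), with 4 at an unadjusted p under 0.05 and 2 by DESeq2. It called 0 of 9 in MHCC97L-Oxa against MHCC97L (median 0.04), with 4 unadjusted and 3 by DESeq2, and SEMA3B alone of 8 between the resistant lines (median -0.01). Semaphorins and plexins together came to 615.5, 932.1 and 954 CPM in MHCC97L, 1172, 1207 and 1174 in MHCC97L-Oxa and 1011, 1189 and 967.9 in MHCC97L-Src.

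ENG encodes endoglin, a coreceptor for bone morphogenetic proteins 9 and 10 that is abundant on growing endothelium (NCBI gene number 2022, chromosome 9, 127815012 to 127854756, - strand). It showed 1345, 1944 and 2023 counts in MHCC97L, 1742, 1879 and 1919 in MHCC97L-Oxa and 2201, 2392 and 2285 in MHCC97L-Src. The MHCC97L-Src libraries were above all others, MHCC97L replicate 1 was the lowest, and MHCC97L and MHCC97L-Oxa overlapped. Mean levels were 98.4 ± 25.2, 101.8 ± 5.3 and 137.2 ± 16.5 CPM. The log2 difference of MHCC97L-Src from MHCC97L was 0.48 (SE 0.26, edgeR adjusted p 0.241), with 0.08 under the GC and length offsets and 0.32 without MHCC97L replicate 1. That of MHCC97L-Oxa was 0.05 (SE 0.24, edgeR adjusted p 0.906), and it turned to -0.21 with the offsets and to -0.06 without MHCC97L replicate 1. MHCC97L-Src and MHCC97L-Oxa differed by 0.43 (SE 0.12, edgeR adjusted p 0.0822), not called, but called with the offsets (0.28, edgeR adjusted p 0.0446) and without MHCC97L-Src replicate 3 (edgeR adjusted p 0.0274).

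**Figure D3:**
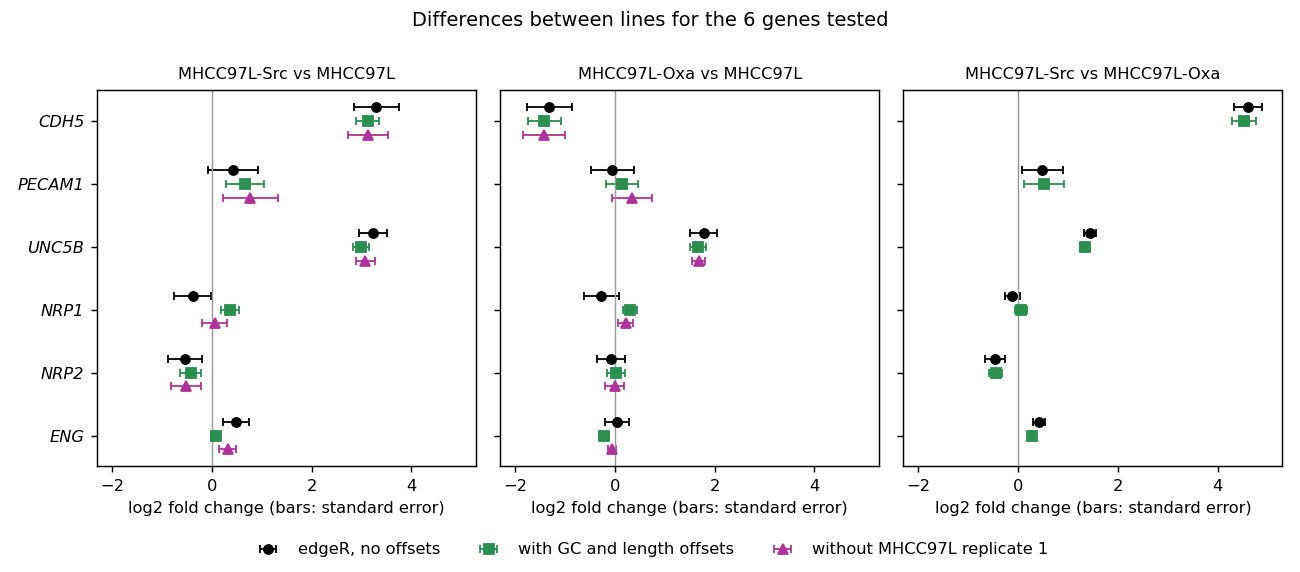
Log2 fold change on a linear axis, with bars of the standard error, of the 6 vascular genes tested in each comparison, from 3 libraries per line. Circles are the edgeR fit, squares the fit with GC and length offsets and triangles the fit without MHCC97L replicate 1; CDH5 and UNC5B stayed on their side of 0 in all fits, while NRP1 in MHCC97L-Src against MHCC97L went from -0.38 to 0.37 with the offsets and ENG in MHCC97L-Oxa against MHCC97L from 0.05 to -0.21.

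The 9 endoglin partners are ligands, receptors and inhibitors of the same signaling pathway. GDF2 and BMP10, which encode the ligands of endoglin, had 0 counts in every library, and their receptor ACVRL1 had 3 to 25. TGFBR2, the type II receptor of transforming growth factor beta, gave 2616, 1016 and 650 counts in MHCC97L, 897, 759 and 586 in MHCC97L-Oxa and 722, 400 and 1312 in MHCC97L-Src, with overlap between all lines. SMAD6, an inhibitor of the pathway, showed 875, 1161 and 1139 counts in MHCC97L, 593, 607 and 600 in MHCC97L-Oxa and 244, 228 and 285 in MHCC97L-Src. MHCC97L was highest and MHCC97L-Src lowest, with no overlap. SMAD6 fell by 1.97 on the log2 scale in MHCC97L-Src (SE 0.29, edgeR adjusted p 0.0175), a call lost without MHCC97L replicate 3 (adjusted p 0.085) and without MHCC97L-Src replicate 1, 2 or 3 (0.121, 0.101 and 0.0945). In MHCC97L-Oxa the difference of -0.83 was not called (edgeR adjusted p 0.164), while MHCC97L-Src was below MHCC97L-Oxa by a called difference (-1.14, edgeR adjusted p 0.00197). SMAD7, the other inhibitor, gave 316, 362 and 398 counts in MHCC97L, 275, 299 and 271 in MHCC97L-Oxa and 129, 96 and 114 in MHCC97L-Src. It was not called against MHCC97L in MHCC97L-Src (-1.56, edgeR adjusted p 0.0737) and was lower there than in MHCC97L-Oxa (-1.21, edgeR adjusted p 0.00497). In MHCC97L, TGFBR2 had 10.4 ± 7.48 FPKM and SMAD6 8.07 ± 1.15. The higher mean of TGFBR2 came from replicate 1, at 18.9 FPKM against 7.44 and 4.78, and SMAD6 was above it in replicates 2 and 3. edgeR called SMAD6 alone of 6 tested in MHCC97L-Src (median -1.35), with 2 at an unadjusted p under 0.05 and 2 by DESeq2. It called 0 of 7 in MHCC97L-Oxa (median -0.83), with 1 at an unadjusted p under 0.05 and 0 by DESeq2. In MHCC97L-Src against MHCC97L-Oxa it called SMAD6 and SMAD7 of 6 tested (median -0.44), both lower, beside 4.64% of all genes tested. Together the endoglin partners came to 271.5, 160.3 and 148.3 CPM in MHCC97L, 118.7, 115.3 and 105.1 in MHCC97L-Oxa and 89.4, 66.4 and 117.7 in MHCC97L-Src.

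Of 13 genes linked to vasculogenic mimicry, MMP9 had at most 7 counts and NODAL at most 1 in any library. MMP2, a gelatinase of the matrix, led the list at 53.2 ± 10.7 FPKM in MHCC97L, 125.3 ± 3.75 in MHCC97L-Oxa and 86.6 ± 4.58 in MHCC97L-Src. Its differences from MHCC97L were not called (1.24, edgeR adjusted p 0.0598, and 0.79, 0.113), and it was lower in MHCC97L-Src than in MHCC97L-Oxa (-0.46, edgeR adjusted p 0.0392). That call was lost without MHCC97L-Oxa replicate 1, 2 or 3 or MHCC97L-Src replicate 1 (0.122 to 0.272). TWIST1, a transcription factor of mesenchymal cells, showed 326, 414 and 345 counts in MHCC97L, 836, 918 and 913 in MHCC97L-Oxa and 795, 807 and 857 in MHCC97L-Src. Both resistant lines lay above MHCC97L and overlapped each other, and neither difference was called (1.29, edgeR adjusted p 0.0649, and 1.29, 0.0614). EPHA2, a receptor kinase, had 34.3 ± 7.2 FPKM in MHCC97L, 31.7 ± 2.58 in MHCC97L-Oxa and 22.5 ± 1.1 in MHCC97L-Src, with a log2 difference of -0.51 in MHCC97L-Src (edgeR adjusted p 0.223). SERPINF1, which encodes the angiogenesis inhibitor PEDF, gave 0, 3 and 4 counts in MHCC97L, 10, 9 and 4 in MHCC97L-Oxa and 41, 33 and 30 in MHCC97L-Src. Its fitted log2 difference in MHCC97L-Src was 3.92 (SE 0.76, edgeR adjusted p 0.041). It passed the count filter only through the MHCC97L-Src libraries, so this call is given as a description and nothing is read from it. Without MHCC97L replicate 3 the difference was 4.51 and not called (adjusted p 0.115), nor was it without MHCC97L-Src replicate 1, 2 or 3 (0.0836, 0.1 and 0.113). Between the resistant lines, where the same limit from the filter holds, SERPINF1 was higher in MHCC97L-Src (2.27, edgeR adjusted p 0.0124). That call was lost without MHCC97L-Oxa replicate 2 or 3 or MHCC97L-Src replicate 1 (0.0545 to 0.072). edgeR called SERPINF1 alone of 11 tested in MHCC97L-Src (median -0.51), with 6 at an unadjusted p under 0.05 and 4 by DESeq2. It called 0 of 10 in MHCC97L-Oxa (median -0.06), with 4 at an unadjusted p under 0.05 and 2 by DESeq2. Compared with MHCC97L-Oxa, MHCC97L-Src had 4 calls among 11 tested (median -0.38), beside 4.64% of all genes tested. The lists were chosen with earlier results known, so nothing particular to this list is read from the count. The calls were SERPINF1, MMP2 and, named after their values were seen, HIF1A and TFPI2. HIF1A and TFPI2 were lower in MHCC97L-Src (-1.17, edgeR adjusted p 0.0235, and -0.79, 0.0146). HIF1A lost its call without MHCC97L-Oxa replicate 2 or 3 or MHCC97L-Src replicate 1 (0.0931 to 0.105), and TFPI2 without MHCC97L-Oxa replicate 1, 2 or 3 or MHCC97L-Src replicate 1 (0.0675 to 0.095). With the GC and length offsets neither was called (-0.78, adjusted p 0.0539, and -0.50, 0.0502). The mimicry list summed to 630.1, 688.1 and 724.8 CPM in MHCC97L, 959.7, 994.5 and 1038 in MHCC97L-Oxa and 710, 816.2 and 700.7 in MHCC97L-Src.

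Of 16 transcription factors of the endothelial program, FLI1 and TAL1 had 0 counts in every library, and ERG had 1 count in MHCC97L-Oxa replicate 2 and 0 elsewhere. FOXC2, a forkhead factor of lymphatic and vascular development, showed 115, 186 and 177 counts in MHCC97L, 753, 825 and 667 in MHCC97L-Oxa and 238, 259 and 226 in MHCC97L-Src. MHCC97L-Oxa was far above the other lines, and no lines overlapped. FOXC2 rose 4.65-fold in MHCC97L-Oxa (log2 2.22, SE 0.33, edgeR adjusted p 0.0309), a call lost without MHCC97L replicate 3 (adjusted p 0.138) and without MHCC97L-Oxa replicate 1, 2 or 3 (0.213, 0.231 and 0.2). In MHCC97L-Src it was not called (0.70, edgeR adjusted p 0.26), and it was lower there than in MHCC97L-Oxa (-1.52, edgeR adjusted p 0.000808). EPAS1, which encodes the hypoxia factor HIF-2α, gave 8928, 9963 and 7971 counts in MHCC97L, 8596, 9100 and 7788 in MHCC97L-Oxa and 4324, 3106 and 4941 in MHCC97L-Src. MHCC97L-Src lay below both other lines, which overlapped; the difference from MHCC97L-Oxa was called (-0.95, edgeR adjusted p 0.00308) and that from MHCC97L was not (-1.03, 0.0629). ETS2, an ETS factor, had 35 ± 4.08 FPKM in MHCC97L, 37.5 ± 2.6 in MHCC97L-Oxa and 60.4 ± 7.9 in MHCC97L-Src, higher than in MHCC97L-Oxa by a called difference (0.73, edgeR adjusted p 0.00395) and not called against MHCC97L (0.85, 0.0843). GATA2 had 48.8 ± 8.31, 59.1 ± 2.6 and 65.7 ± 1.75 FPKM, with no call in any comparison. edgeR called 0 of 10 in MHCC97L-Src against MHCC97L (median 0.33), with 5 at an unadjusted p under 0.05 and 3 by DESeq2. It called FOXC2 alone of 11 in MHCC97L-Oxa (median 0.12), with 4 unadjusted and 1 by DESeq2. Compared with MHCC97L-Oxa, MHCC97L-Src had 5 among 11 (median 0.26), beside 4.64% of all genes tested. The lists were chosen with earlier results known, so nothing particular to this list is read from the count. Among the 5, named after their values were seen, were SOX7, higher (0.85, edgeR adjusted p 0.0116), and KLF4, lower (-0.92, 0.0213) in MHCC97L-Src. SOX7 lost its call without MHCC97L-Oxa replicate 1, 2 or 3 or MHCC97L-Src replicate 1 (0.0537 to 0.109), and KLF4 without MHCC97L-Oxa replicate 1 or 2 or MHCC97L-Src replicate 1 (0.0656 to 0.127) and by limma on log2(FPKM + 1) or log2(FPKM + 0.1) (0.0626 and 0.0643). These factors summed to 994, 1274 and 1030 CPM in MHCC97L, 1190, 1190 and 1095 in MHCC97L-Oxa and 1145, 1111 and 1170 in MHCC97L-Src.

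The 8 pathway lists together hold 92 genes, 91 of them in the tables. In MHCC97L-Src against MHCC97L, edgeR called 4 of 59 tested, 3 higher and 1 lower, which is 6.78% beside 2.13% of all genes tested, and in MHCC97L-Oxa against MHCC97L 2 of 62, both higher, which is 3.23% beside 0.953%. Between the resistant lines it called 18 of 60, 6 higher and 12 lower, which is 30% beside 4.64%. The lists were chosen with earlier results known, so nothing particular to them is read from these shares. SERPINF1, among the 4 and among the 18, passed the count filter only through MHCC97L-Src. The medians were -0.11, -0.11 and -0.12, beside -0.16, -0.19 and -0.02 over all genes tested. The count of 4 became 14, 28 or 0 without MHCC97L replicate 1, 2 or 3 and 0 without MHCC97L-Src replicate 1, 2 or 3. The count of 2 became 18, 17 or 0 without MHCC97L replicate 1, 2 or 3 and 0 without MHCC97L-Oxa replicate 1, 2 or 3. The count of 18 became 10, 6 or 8 without MHCC97L-Oxa replicate 1, 2 or 3 and 8 without MHCC97L-Src replicate 1. It became 3, SMAD6, FOXC2 and EPAS1, with all 9 libraries in a joint fit, which also ended the calls of KRT8, KRT18, CD68, CSF1R, PDGFRB and DCN between the resistant lines. On log2(FPKM + 1), differences of genes of low level came out smaller by over 1.5 times, at 1.79 for PGF, 0.78 for SERPINF1 and 1.48 for CD14 in MHCC97L-Src against MHCC97L, and at 1.27 for CD14 and 0.19 for SERPINA1 in MHCC97L-Oxa. Between the resistant lines they were 0.50 for RGMA, 0.61 for SERPINF1, -0.46 for CDH13 and -0.59 for CSF1R on that scale.

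Measured against a list of 20 other endothelial markers, of which 4 (ROBO4, ERG, SOX17 and SOX18) are also in the pathway lists, none of the lines had the profile of endothelial cells. CLDN5, EMCN, ECSCR, MMRN1, CLEC14A and LYVE1 had 0 counts in every library, and 15 of the 20 were under 10 counts in every library, VWF with at most 4 among them. The list summed to 29.3, 51.4 and 55.7 CPM in MHCC97L, 56.6, 59.2 and 58.3 in MHCC97L-Oxa and 73.3, 98 and 68.1 in MHCC97L-Src. Between 56.1% and 77.7% of its counts came from EGFL7, a matrix protein made by endothelium. EGFL7 showed 326, 516 and 561 counts in MHCC97L, 773, 812 and 807 in MHCC97L-Oxa and 946, 1168 and 904 in MHCC97L-Src. The lines did not overlap, in the same order as for UNC5B, but no difference was called (edgeR adjusted p 0.209 and 0.0942 against MHCC97L and 0.157 between the resistant lines). SOX18 gave 175, 245 and 296 counts in MHCC97L, 144, 161 and 146 in MHCC97L-Oxa and 177, 234 and 213 in MHCC97L-Src, and ICAM2 had 5 to 31 counts. MMRN2, with 32 to 73 counts, and ESAM, with 15 to 39, complete the 5 markers tested. In MHCC97L-Src against MHCC97L, edgeR called 0 of 5 tested (median 0.30), with 1 at an unadjusted p under 0.05 and 1 by DESeq2. In MHCC97L-Oxa against MHCC97L it called 0 of 5 (median -0.18), with 1 unadjusted and 0 by DESeq2, and between the resistant lines 0 of 5 (median 0.54), with 2 unadjusted and 0 by DESeq2. CDH5 in MHCC97L-Src was thus high in libraries with 0 counts of KDR, FLT1, TEK and TIE1 and of those 6 markers.

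**Figure D4:**
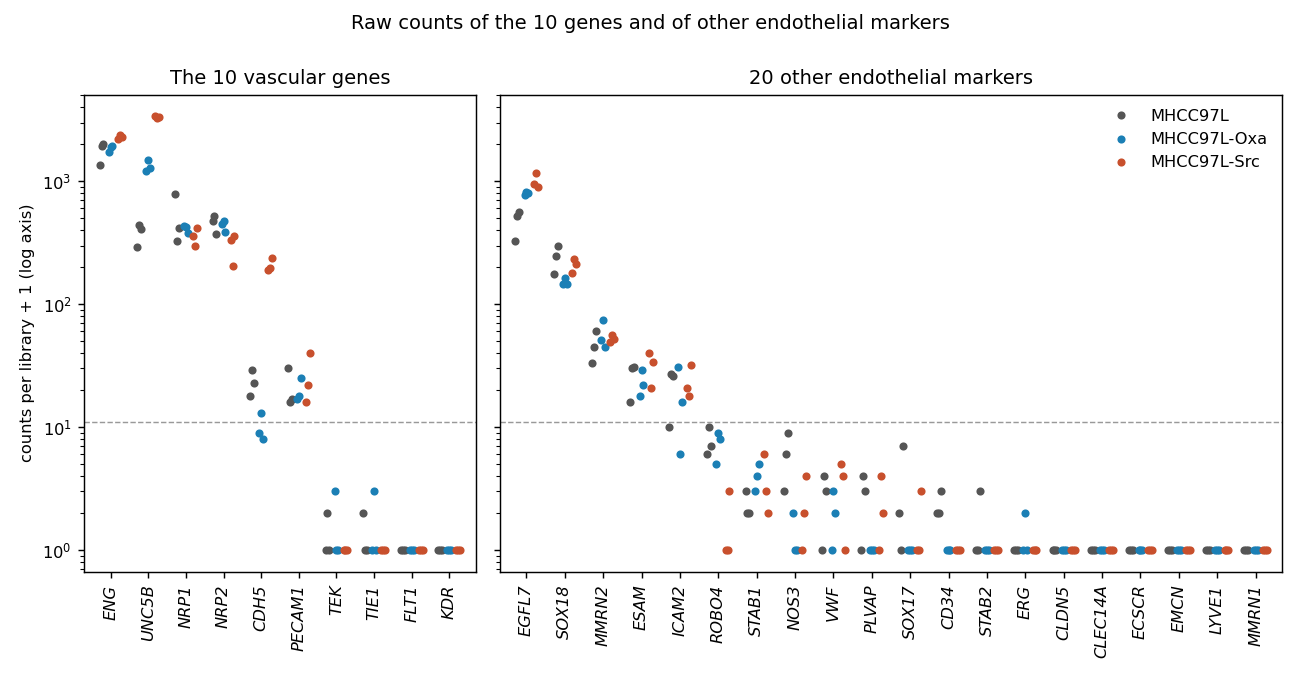
Raw counts plus 1, on a log axis, of the 10 vascular genes on the left and of 20 other endothelial markers on the right. Each point is a library, colored by line, and the dashed line marks 10 counts; TEK, TIE1, FLT1 and KDR and 15 of the 20 markers lay under it in every library, while CDH5 reached 188 to 236 counts in MHCC97L-Src.

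Of 8 leukocyte markers, PTPRC, LYZ and CD3E had 0 counts in every library, and the list summed to 54.7, 91.1 and 93.8 CPM in MHCC97L, 158.2, 153.9 and 158.6 in MHCC97L-Oxa and 97.5, 110.5 and 77.4 in MHCC97L-Src, with 81.2% to 91.7% of its counts from the lysosomal protein CD68. CD14, a receptor for lipopolysaccharide, showed 16, 18 and 20 counts in MHCC97L, 91, 79 and 87 in MHCC97L-Oxa and 97, 104 and 100 in MHCC97L-Src. MHCC97L lay below both resistant lines without overlap. It rose in MHCC97L-Src (log2 2.58, SE 0.43, edgeR adjusted p 0.0236) and in MHCC97L-Oxa (2.24, SE 0.39, edgeR adjusted p 0.0428). The call in MHCC97L-Src was lost without MHCC97L replicate 3 (0.115) and without MHCC97L-Src replicate 1, 2 or 3 (0.108, 0.105 and 0.109). The call in MHCC97L-Oxa was lost without MHCC97L replicate 3 (0.164), without MHCC97L-Oxa replicate 1, 2 or 3 (0.26, 0.257 and 0.263) and with replicate number as a block (0.102). CD14 was the only edgeR call among the 4 leukocyte markers tested against MHCC97L in either line (medians 0.73 and 1.15), with 2 at an unadjusted p under 0.05 and 2 called by DESeq2 in each comparison. CD68 and CSF1R were lower in MHCC97L-Src than in MHCC97L-Oxa (-0.75, edgeR adjusted p 0.0116, and -1.57, 0.0135), with a list median of -0.44. CD68 lost its call without MHCC97L-Oxa replicate 1, 2 or 3 or MHCC97L-Src replicate 1 (0.0609 to 0.0763), and CSF1R without MHCC97L-Oxa replicate 1 or 2 or MHCC97L-Src replicate 1 (0.0559 to 0.0753).

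Of 10 pericyte or fibroblast markers, COL1A2, a chain of type I collagen, had 2 counts in MHCC97L replicate 1 and 0 elsewhere, and the other 9 reached 10 counts in some library. THY1, a surface glycoprotein, held 45.8% to 58.6% of the counts of the list, with 76.4 ± 17.4 FPKM in MHCC97L, 57.9 ± 2.58 in MHCC97L-Oxa and 47.6 ± 3.78 in MHCC97L-Src. By mean FPKM over the 9 libraries CSPG4 followed, at 24.9 ± 4.32, 21.4 ± 0.659 and 25.6 ± 1.65 FPKM, and then COL1A1, at 7.81 ± 0.387, 9.7 ± 0.647 and 7.96 ± 0.387. The list summed to 731.7, 1040 and 1028 CPM in MHCC97L, 768.3, 779.2 and 776.8 in MHCC97L-Oxa and 691, 796.6 and 631.4 in MHCC97L-Src. Of 9 tested in MHCC97L-Src against MHCC97L, edgeR called 0 (median -0.26), with 3 at an unadjusted p under 0.05 and 3 by DESeq2, and in MHCC97L-Oxa 0 of 8 (median -0.09), with 1 unadjusted and 0 by DESeq2. Between the resistant lines (median -0.23) it called PDGFRB and DCN, named after their values were seen, both lower in MHCC97L-Src (-1.32, edgeR adjusted p 0.00395, and -1.89, 0.00294). Whether other cells had a part in the levels of CDH5 and UNC5B was not tested beyond these lists.

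The genes most like CDH5 and UNC5B across the 9 libraries were looked up among 12281 genes by Pearson's r of log2 CPM, as a description with no p, since the libraries form 3 lines and share their composition. For CDH5 they were MUC6 (r 0.982), PLA2G3 (0.975), MUC4 (0.969), KRT15 (0.967) and PRKCZ (0.958), and 7 genes had an r over 0.95. MUC6, a secreted mucin, gave 2, 2 and 6 counts in MHCC97L, 0 in each MHCC97L-Oxa library and 58, 59 and 48 in MHCC97L-Src. KRT15, a keratin, showed 25, 32 and 30 counts in MHCC97L, 22, 29 and 14 in MHCC97L-Oxa and 63, 71 and 65 in MHCC97L-Src. In CPM both were highest in MHCC97L-Src, as CDH5 was, which restates the choice by likeness. MUC6 and MUC4 met the minimum of 10 counts in 3 libraries only through MHCC97L-Src, so nothing is read from their likeness. In FPKM KRT15 overlapped, at 0.306 in MHCC97L-Src replicate 1 and 0.3404 in MHCC97L-Oxa replicate 2. For UNC5B they were MB (r 0.994), ASIC1 (0.993), CMTM8 (0.993), SH3PXD2B (0.991) and GDF15 (0.988), and 137 genes had an r over 0.95. MB, myoglobin, gave 40, 48 and 51 counts in MHCC97L, 122, 170 and 143 in MHCC97L-Oxa and 333, 375 and 294 in MHCC97L-Src. GDF15, a secreted stress factor, showed 214, 255 and 250 counts in MHCC97L, 866, 922 and 824 in MHCC97L-Oxa and 1390, 1699 and 1580 in MHCC97L-Src. Both followed the order of UNC5B, with MHCC97L lowest and MHCC97L-Src highest, which likewise restates the choice by likeness.

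The annotation in the count table links these genes by function as well. Of 6 members with GO terms, 5 carried angiogenesis (UNC5B, KDR, FLT1, NRP1 and NRP2), which 1.58% of 15303 annotated genes carry, and UNC5B, NRP1 and NRP2 carried axon guidance, beside 1.07%. Of 7 members with KEGG pathways, UNC5B and NRP1 were in axon guidance, beside 2.42% of 7246 annotated genes, and CDH5 and PECAM1 in cell adhesion molecules, beside 1.96%. The members were chosen as vascular genes, so these shares describe the choice.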

How the data were processed

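Poly(A) RNA of MHCC97L, MHCC97L-Src and MHCC97L-Oxa was sequenced by the authors in 3 libraries per line. The authors deposited raw counts per gene, used for all tests. The deposited FPKM values were scaled by the authors to transcript length and library size, and are no plain rescaling of the counts, with 245 to 297 genes per library counted but at FPKM 0. The submitters' notes name Trimmomatic 0.36, HISAT2 and GRCh38.p12, and the counting program is not given in the sources used here. Library totals were 16970486 to 18209213 counts. With the TMM factors applied to these totals, 3 counts equal 0.155 to 0.196 CPM.

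For each comparison of 6 libraries, genes were kept by filterByExpr (minimum count 10), scaled by TMM and tested by edgeR's quasi-likelihood test, with Benjamini-Hochberg adjustment over all genes and a threshold of 0.05. The standard error is the absolute log2 fold change over the square root of F. CPM used TMM factors of all 9 libraries, and log2 CPM a prior count of 2. Fits were made in R 4.3.3 with edgeR 4.0.16, DESeq2 1.42.0 and limma 3.58.1. Tables and figures used Python 3.11.15 with matplotlib 3.10.9, SciPy 1.17.1 and pandas 2.3.3, and the scripts were tested on simulated data.

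The alternatives were DESeq2's size factors, no filter, a joint fit of all 9 libraries, a block for the replicate number, DESeq2's Wald test, limma-trend on log2(FPKM + 1) and log2(FPKM + 0.1), leaving out each library, and offsets for GC content and length, alone and with the block. The offsets were natural splines with 5 degrees of freedom each, from the longest GENCODE 29 transcript of 19343 genes.

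Named genes are the 10 members, the genes of 8 pathway lists and of the endothelial, hepatocyte, leukocyte and pericyte or fibroblast marker lists that were called against MHCC97L, the 3 highest of each list by mean FPKM, and the 5 genes most like CDH5 and UNC5B, among genes with at least 10 counts in at least 3 libraries. Genes outside that rule are said to be named after their values were seen, and those named only for their counts complete a list. Members and lists were chosen with earlier results of these data known.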

Additional observations from a re-analysis of the deposited data

Results flagged for a closer look

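CDH5 differed from MHCC97L in opposite directions in the resistant lines, with every MHCC97L-Src library higher (log2 difference 3.30) and every MHCC97L-Oxa library lower (-1.31), and the difference was not tested because CDH5 was chosen by these values.

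Other named genes had a called difference between MHCC97L-Src and MHCC97L-Oxa, which share no library, by edgeR with 3 libraries a line. Higher in MHCC97L-Src were PGF (log2 difference 0.96), RGMA (1.24), JUP (0.89), SERPINF1 (2.27), ETS2 (0.73), KRT8 (0.87) and KRT18 (0.91). Lower in MHCC97L-Src were VEGFA (-0.55), NTN4 (-1.10), SEMA3B (-0.55), SMAD6 (-1.14), SMAD7 (-1.21), MMP2 (-0.46), FOXC2 (-1.52), EPAS1 (-0.95), CD68 (-0.75) and CSF1R (-1.57). JUP, ETS2, KRT18, SMAD6, SMAD7, FOXC2 and EPAS1 kept their call with any of the 6 libraries left out. PGF, RGMA, KRT8, VEGFA, NTN4, SEMA3B, MMP2 and CD68 lost it without MHCC97L-Oxa replicate 1, 2 or 3 or MHCC97L-Src replicate 1, with adjusted p-values between 0.0535 for KRT8 and 0.272 for MMP2. SERPINF1 lost it without MHCC97L-Oxa replicate 2 or 3 or MHCC97L-Src replicate 1 (0.0545 to 0.072), and CSF1R without MHCC97L-Oxa replicate 1 or 2 or MHCC97L-Src replicate 1 (0.0559 to 0.0753). SERPINF1 passed the count filter only through MHCC97L-Src, so nothing is read from its call. With all 9 libraries in a joint fit, SMAD6, FOXC2 and EPAS1 kept the call and the other 14 lost it. Further alternatives ended it for MMP2 with DESeq2's size factors (0.0789), the block (0.0976) and DESeq2 (0.0551), and for SEMA3B with the size factors (0.0659) and the block (0.0617). They ended it for PGF and RGMA with the block (0.0732 and 0.0599) and with offsets and block (0.0671 and 0.0906), for VEGFA with offsets and block (0.0522), and for NTN4 on both FPKM scales (0.0513 and 0.0664). Left out of this list are the called genes named after their values were seen. Of them SOX7 was higher in MHCC97L-Src, and CDH13, HIF1A, TFPI2, KLF4, PDGFRB and DCN were lower. PDGFRB and DCN kept their call with any of the 6 libraries left out, and all of them lost it in the joint fit.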

How the results depend on the processing

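CDH5 and UNC5B kept their directions under every alternative run. Their log2 differences moved by more than the standard error on log2(FPKM + 1), to 1.18, -0.17 and 1.35 for CDH5 (MHCC97L-Src and MHCC97L-Oxa against MHCC97L, then MHCC97L-Src against MHCC97L-Oxa) and to 2.70, 1.45 and 1.25 for UNC5B. On log2(FPKM + 0.1) those of CDH5 moved to 2.64, -0.87 and 3.51. That was by more than the standard error except in MHCC97L-Oxa against MHCC97L, where the SE was 0.45. With 1 library left out they ranged from 3.14 to 3.60, -1.55 to -0.99 and 4.47 to 4.86 for CDH5 and from 3.08 to 3.45, 1.68 to 2.02 and 1.39 to 1.52 for UNC5B.

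The other members changed sign under some alternatives, and the cause was not tested. In MHCC97L-Src against MHCC97L, NRP1 turned to 0.37 with the GC and length offsets, with or without the block. In MHCC97L-Oxa against MHCC97L the offsets alone and with the block turned NRP1 to 0.31 and 0.32, NRP2 to 0.0217 and 0.0378, PECAM1 to 0.15 and 0.13, and ENG to -0.21 and -0.21. PECAM1 there also turned to 0.0285 with DESeq2's size factors, 0.0057 with no filter, 0.0296 by DESeq2, 0.0047 on log2(FPKM + 1) and 0.0445 on log2(FPKM + 0.1). Between the resistant lines the same pair turned NRP1 to 0.0555 and 0.0519, and ENG was called with the offsets alone (0.28). With 1 library left out the ranges in the same order of comparisons were 0.06 to 0.78, -0.26 to 0.34 and 0.11 to 0.74 for PECAM1, -0.54 to 0.0562, -0.40 to 0.22 and -0.16 to -0.07 for NRP1, -0.66 to -0.32, -0.19 to 0.17 and -0.55 to -0.31 for NRP2, and 0.32 to 0.64, -0.056 to 0.24 and 0.31 to 0.50 for ENG.

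The number of genes called moved most, for causes not tested beyond the number of libraries fitted. For MHCC97L-Src against MHCC97L the 256 became 702 with no filter, 988 with the block, 1956 with all 9 libraries in a fit, 1277 with the offsets, 220 with offsets and block and 2114 by DESeq2, and 22 to 3419 with 1 library left out. For MHCC97L-Oxa the 115 became 495 with all 9 libraries, 1558 with the offsets, 599 with offsets and block, 893 by DESeq2, 252 and 256 by limma with pseudocounts 1 and 0.1, and 2 to 2705 with 1 library left out. Between the resistant lines the 556 became 86 with all 9 libraries, 1154 with the offsets, 473 with offsets and block, 839 by DESeq2, and 167 to 1617 with 1 library left out. The split of calls moved too, from 172 higher and 84 lower in MHCC97L-Src to 661 and 616 with the offsets and 723 and 1391 by DESeq2, and from 93 and 22 in MHCC97L-Oxa to 782 and 776 with the offsets and 637 and 2068 without MHCC97L replicate 2.

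Pathway list calls in MHCC97L-Src went from 4 to 7 with DESeq2's size factors, 9 with no filter, 9 with the block, 25 with all 9 libraries, 21 with the offsets, 18 by DESeq2, 7 and 9 by limma, and 0 to 28 with 1 library left out. In MHCC97L-Oxa they went from 2 to 1 with the block, 9 with all 9 libraries, 15 with the offsets, 10 with offsets and block, 10 by DESeq2, 5 and 5 by limma, and 0 to 18 with 1 library left out. Between the resistant lines they went from 18 to 3 with all 9 libraries, and 6 to 24 with 1 library left out. Of the 15 alternatives, PGF, SMAD6 and JUP in MHCC97L-Src and FOXC2 in MHCC97L-Oxa kept direction and call in 11, SERPINF1, CD14 and VEGFA in 10 and SERPINA1 in 9. SERPINF1 and CD14 in MHCC97L-Src lost theirs with offsets and block (0.085 and 0.0528), and SERPINA1 on both FPKM scales (0.22 and 0.0701). SERPINF1 and SERPINA1 passed the count filter only through the line where they were higher.

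The labels do not say that libraries with the same number were prepared together. Depth limits TIE1, TEK, KDR and FLT1, at 0 to 2 counts per library, PECAM1, at 15 to 39, and CDH5, at 17 to 28 in MHCC97L and 7 to 12 in MHCC97L-Oxa. The difference of -1.31 in CDH5 between those lines rests on both, and the 24.4-fold difference of MHCC97L-Src from MHCC97L-Oxa on the latter.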
